A study of Mus musculus with 118 samples.

Results

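The 9 mouse genes encoding the Notch receptors (Notch1, Notch2, Notch3 and Notch4) and their canonical ligands (Dll1, Dll3, Dll4, Jag1 and Jag2) were examined for Polycomb binding. They were taken by name from 26180 genes with a curated RefSeq transcript on chromosomes 1 to 19, X and Y of the mm10 build. Each curated transcription start site (TSS) plus and minus 2500 bp, called the promoter here, and each gene body, from the first to the last base of its curated transcripts, were compared with 3 lists of peaks. A gene was counted as bound by a factor when a peak of that list shared at least 1 bp with a promoter of the gene. RING1B peaks were found at the promoters of all 9. By the widest RING1B peak at a promoter the ligand genes exceeded the receptor genes, although for Dll3 that peak did not hold its TSS and the one that did was narrower than the Notch1 peak. Of the 9 genes, 7 had a SUZ12 peak and 4 had a PCGF2 peak. Over all 26180 genes the shares with a promoter peak were 53.2% for RING1B, 24.8% for SUZ12 and 13.5% for PCGF2.

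The series holds 118 samples in 42 groups of calibrated ChIP-seq (cChIP-seq) and matched input libraries from mouse embryonic stem cells (ESCs). Human or fly cells were mixed in for calibration. The series asked what the loss of PRC1, or of its catalytic activity alone, does to Polycomb factors and histone modifications. The deposited peak lists hold 18643 RING1B, 7438 SUZ12 and 3680 PCGF2 peaks, covering 43.8, 28.9 and 14.2 Mb, and describe untreated cells. The lists give positions alone, with no height, p-value, replicate value or depth, so no value below carries an error or a test of difference. The PRC1CPM line carries Ring1a with I50A/D53K, an inducible switch of Ring1b from wild type to I53A/D56K (both alleles floxed) and Rosa26::ERT2-Cre, and is represented by clone 41. The PRC1CKO line, here clone B9, is Ring1a-/- with Ring1bfl/fl and the same Rosa26::ERT2-Cre. Both are single clones of E14 ESCs, and both lack normal RING1A function before any treatment. Each of the 3 factors has 3 untreated PRC1CPM samples (0 h of 4-hydroxytamoxifen), and SUZ12 has 3 more from untreated PRC1CKO cells. Samples treated for 72 h were not analysed here.

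Notch receptors are single-pass membrane proteins that bind Delta-like or Jagged ligands on a neighbouring cell. Binding leads to cleavage of the receptor by ADAM proteases and then by gamma-secretase, and the released intracellular domain enters the nucleus, where it joins RBPJ and a Mastermind-like protein at target genes such as those of the Hes and Hey families. RING1B is the ubiquitin ligase subunit of PRC1, PCGF2 marks the canonical form of PRC1, which binds the histone mark left by PRC2, and SUZ12 is a core subunit of PRC2. In ESCs these complexes gather at CpG-rich promoters of developmental genes.

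Promoter DNA of 5 of the genes is printed, from the lowest to the highest CpG count among the 9 genes, with a cytosine followed by guanine (CpG) in capitals. Each run holds the 250 bases before the RefSeq start, read 5′ to 3′ on the strand of the gene, from GRCm38.p6 (mm10): chr2:119325534-119325783 on the plus strand for Dll4, chr2:137116521-137116770 on the minus strand for Jag1, chr12:112929496-112929745 on the minus strand for Jag2, chr17:32166891-32167140 on the minus strand for Notch3 and chr17:34564045-34564294 on the plus strand for Notch4. Dll4 and Jag1 had all 3 factors at the promoter, Jag2 had RING1B and SUZ12, and Notch3 and Notch4 had RING1B alone. RING1B peaks covered these runs whole except in Notch3, where the peak began 185 bp before the TSS.
Dll4: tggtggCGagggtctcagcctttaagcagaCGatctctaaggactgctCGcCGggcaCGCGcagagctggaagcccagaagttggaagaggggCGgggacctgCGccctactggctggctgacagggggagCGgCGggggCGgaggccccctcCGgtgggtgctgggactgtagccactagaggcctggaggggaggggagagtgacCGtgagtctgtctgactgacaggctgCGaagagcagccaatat
Jag1: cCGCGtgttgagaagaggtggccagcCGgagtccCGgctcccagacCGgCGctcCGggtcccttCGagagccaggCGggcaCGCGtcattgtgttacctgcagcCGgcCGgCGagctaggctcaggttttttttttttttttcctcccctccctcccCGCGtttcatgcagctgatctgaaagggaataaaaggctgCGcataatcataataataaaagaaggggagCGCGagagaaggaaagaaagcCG
Jag2: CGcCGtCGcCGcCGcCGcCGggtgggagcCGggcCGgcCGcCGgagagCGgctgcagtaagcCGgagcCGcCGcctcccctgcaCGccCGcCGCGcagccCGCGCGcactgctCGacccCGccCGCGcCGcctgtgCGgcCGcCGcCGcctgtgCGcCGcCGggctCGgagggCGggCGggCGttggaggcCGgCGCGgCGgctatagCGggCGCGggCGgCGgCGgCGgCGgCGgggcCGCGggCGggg
Notch3: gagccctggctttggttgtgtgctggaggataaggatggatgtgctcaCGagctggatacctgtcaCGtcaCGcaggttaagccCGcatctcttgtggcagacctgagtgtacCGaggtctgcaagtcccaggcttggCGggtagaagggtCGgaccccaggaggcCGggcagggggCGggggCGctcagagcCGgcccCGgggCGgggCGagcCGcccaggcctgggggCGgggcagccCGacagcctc
Notch4: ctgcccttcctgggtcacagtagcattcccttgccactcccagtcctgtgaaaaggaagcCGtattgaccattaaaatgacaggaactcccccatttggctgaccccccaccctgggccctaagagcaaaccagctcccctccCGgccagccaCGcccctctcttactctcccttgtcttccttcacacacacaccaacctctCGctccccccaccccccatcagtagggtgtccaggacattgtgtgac
These runs hold 14 CpGs in Dll4, 20 in Jag1, 54 in Jag2, 17 in Notch3 and 4 in Notch4. The RBPJ core TGGGAA, searched on both strands, was found in 0 of the 10 member promoters of this length (Dll1 has a pair of starts), against 21.6% of 32851 RefSeq promoters. The longer GTGGGAA, which contains the core, was found in 0 of the 10 and in 5.42% of all promoters. All 9 genes had an entry in the promoter table.

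A RING1B peak lay at a promoter of 9 of the 9 genes, where the background over all genes was 53.2%. Over genes with a CpG-rich promoter, as defined below, it was 88.8%. SUZ12 peaks lay at 7 of the 9, with a background of 24.8%, and the exceptions were Notch3 and Notch4. PCGF2 peaks lay at 4 of the 9 (Notch1, Dll1, Dll4 and Jag1), with a background of 13.5%. The same 4 genes had all 3 factors, with a background of 13.4%. By role, the receptors had RING1B, SUZ12 and PCGF2 peaks at 4, 2 and 1 of 4 promoters, and the ligands at 5, 5 and 3 of 5. The genes were few, and the counts describe them without a test.

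**Figure D1:**
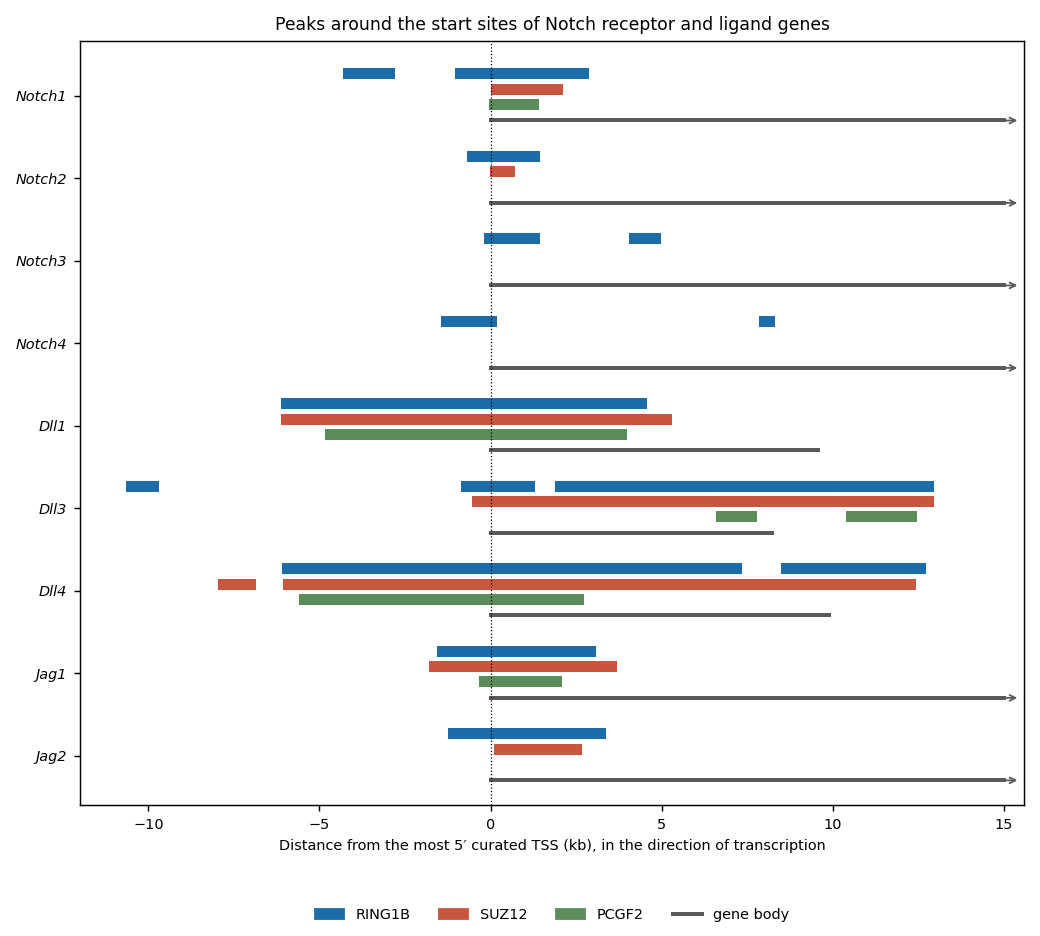
Peaks of the 3 lists from 12 kb before to 15 kb after the most 5′ curated TSS of each gene, drawn in the direction of transcription. Each coloured bar is a peak (RING1B blue, SUZ12 red, PCGF2 green), the grey line is the gene body, and an arrow marks a body that runs on. Peaks at Dll1, Dll3 and Dll4 run over several kilobases, whereas those at the 4 receptor promoters are at most 3921 bp wide.

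Among the receptors, Notch1, the most widely studied member of the family, had the most complete set of peaks. Its TSS is at position 26503822 on the minus strand of chromosome 2, and its body is 45.9 kb long. The RING1B peak at 26500941 to 26504861 was 3921 bp wide and ran from 1039 bp before the TSS to 2881 bp after it. The SUZ12 peak of 2088 bp, at 26501719 to 26503806, and the PCGF2 peak of 1482 bp, at 26502399 to 26503880, both lay inside the RING1B peak. The SUZ12 peak began 16 bp past the TSS and so did not hold it. The RING1B peak thus extended past the SUZ12 peak by 1055 bp on the upstream side and by 778 bp on the downstream side. A start of Gm35978, an annotated gene whose role is not described here, lies in the same RING1B peak, so the peak cannot be given to Notch1 alone. A further RING1B peak of 1504 bp lay upstream, with its nearer edge 2801 bp from the TSS and without SUZ12 or PCGF2.

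Notch2 had a narrower arrangement of RING1B and SUZ12. The gene starts at 98013538 on the plus strand of chromosome 3 and is the longest of the 9, at 137 kb. Its RING1B peak at 98012847 to 98014979 was 2133 bp wide, and its SUZ12 peak at 98013528 to 98014259 was 732 bp wide, narrower than at any other of the 7 genes with SUZ12. SUZ12 covered 34.3% of the RING1B peak, from 10 bp before the TSS to 721 bp after it, and no PCGF2 peak lay at the promoter.

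Notch3 and Notch4, which are best known from vascular cells, had RING1B peaks alone. The Notch3 peak on chromosome 17, at 32165433 to 32167075, was 1643 bp wide and had 88.7% of its bases downstream of the TSS at 32166890. The Notch4 peak, at 34562861 to 34564494 on the same chromosome, was nearly as wide at 1634 bp but lay on the other side, with 12.2% of its bases downstream of the TSS at 34564295. The nearest SUZ12 peak was 21.4 kb upstream of the Notch3 start and 26.9 kb downstream of the Notch4 start, the latter beyond the 24.2 kb gene body. Both genes therefore lay outside SUZ12 peaks over their whole length.

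The Delta-like ligand genes had the widest peaks. Dll1, a ligand used in somite segmentation and neurogenesis, has curated starts at 15375823 and 15376932 on the minus strand of chromosome 17. One RING1B peak of 10698 bp (15372359 to 15383056), one SUZ12 peak of 11440 bp (15371618 to 15383057) and one PCGF2 peak of 8825 bp (15372953 to 15381777) each spanned both starts. The upstream edges of RING1B and SUZ12 differed by 1 bp, while SUZ12 ran 741 bp further into the gene. PCGF2 ended inside both, 1279 bp short of the upstream RING1B edge and 594 bp short of the downstream one.

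Dll4, a ligand best known from endothelial cells, had the widest peak of the 9 genes in the RING1B and SUZ12 lists. Its RING1B peak at 119319690 to 119333144 on chromosome 2 was 13455 bp wide, and a second one of 4216 bp, at 119334279 to 119338494, covered the 3′ end. A single SUZ12 peak of 18493 bp, at 119319732 to 119338224, joined the stretch that RING1B left as separate peaks. The SUZ12 and RING1B upstream edges were 42 bp apart, and SUZ12 ran 5080 bp past the end of the wider RING1B peak. PCGF2 covered 8308 bp, at 119320195 to 119328502, starting 505 bp inside the upstream RING1B edge and ending 4642 bp before the downstream one, so that the 3′ part of the gene lay under RING1B and SUZ12 without PCGF2. The starts of Dll4 and of Gm14207 both lie in the wider RING1B peak and in the SUZ12 and PCGF2 peaks. The widths of these peaks therefore cannot be given to Dll4 alone.

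Dll3, a divergent ligand that acts mainly within the cell and is needed for somite formation, differed from the other Delta-like genes at its start. A SUZ12 peak of 13492 bp on chromosome 7, at 28288822 to 28302313, ran from 528 bp before the TSS at 28301785 to beyond the end of the gene. RING1B was split into a peak of 2151 bp that held the TSS, at 28300496 to 28302646, and a peak of 11063 bp downstream, at 28288840 to 28299902. The 593 bp between them were wholly under SUZ12 and held 15.2 CpGs per kb, against 29.5 and 31.6 in the peaks on either side. No PCGF2 peak lay at the promoter, but one of 1176 bp lay in the gene body, from 6598 to 7773 bp after the TSS, and another of 2088 bp lay beyond the gene around the start of Selenov. The wider RING1B peak and the SUZ12 peak also hold the Selenov start, so their widths cannot be given to Dll3 alone.

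The Jagged genes had narrower peaks than the Delta-like genes in the RING1B list when the widest promoter peak was taken. Jag1, which is mutated in Alagille syndrome, had all 3 factors: RING1B over 4657 bp at 137113441 to 137118097 on chromosome 2, SUZ12 over 5513 bp at 137112814 to 137118326, and PCGF2 over 2412 bp at 137114437 to 137116848. SUZ12 extended past RING1B here on both sides, by 229 bp upstream and 627 bp downstream. Jag2 had a RING1B peak of nearly the same width, 4603 bp at 112926135 to 112930737 on chromosome 12, but its SUZ12 peak was 2571 bp, at 112926838 to 112929408, and it had no PCGF2 peak. That SUZ12 peak began 87 bp after the TSS at 112929495 and lay wholly inside the RING1B peak. The Jagged genes were thus alike in RING1B width and differed in the extent of the other factors.

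**Figure D2:**
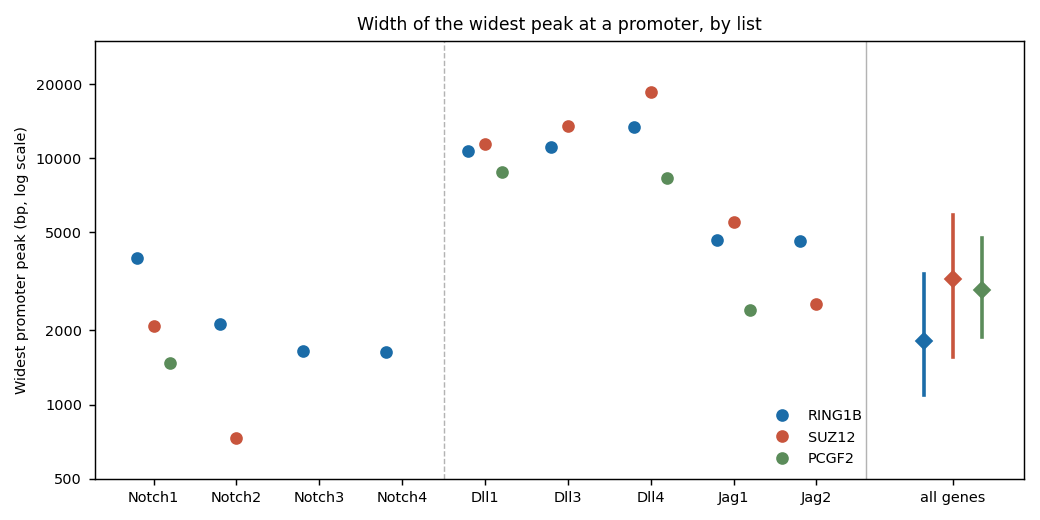
Width in bp of the widest peak at a promoter of each gene, on a log scale, with points by list and a dashed line between receptors and ligands. At the right, diamonds and bars give the median and quartiles over all genes with such a peak. RING1B widths run from 1634 to 3921 bp at receptors and from 4603 to 13455 bp at ligands.

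Taking the widest promoter peak of each gene, the median RING1B width was 1888 bp over the 4 receptors and 10698 bp over the 5 ligands, with 1810 bp over all 13922 genes with such a peak. The ranges of receptors and ligands did not overlap for RING1B, but if the Dll3 peak that holds the TSS is taken instead, its 2151 bp falls within the receptor range. The middle value of the 5 ligands is then the 4657 bp of Jag1. SUZ12 widths also lay apart, at 732 and 2088 bp for the receptors with a peak and 2571 to 18493 bp for the ligands, beside a median of 3232 bp over all 6487 genes with one. PCGF2 widths were 1482 bp at Notch1 and 2412 to 8825 bp at the ligands, beside a median of 2912 bp. Ranked among all genes with a promoter RING1B peak, the widest peaks of Dll1, Dll3 and Dll4 lay at percentiles 95.8, 96 and 97, those of Jag1 and Jag2 at 83.9 and 83.7, and those of the receptors between 44.8 and 79.7. Notch3 and Notch4 lay just below the middle of this ranking.

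The position of SUZ12 relative to the start also varied among the members. Of 6 members with 1 curated TSS and 1 SUZ12 promoter peak, 4 (Notch1, Notch2, Dll3 and Jag2) had more than 90% of that peak downstream of the TSS, where the background was 24.3% of 4879 such genes. The threshold of 90% was chosen after these values had been seen, so the count is a description. The other members of the 6 were Dll4 and Jag1, with 67.3% and 67.2% of the peak downstream. The SUZ12 peaks of Notch1 and Jag2 did not hold the TSS, whereas 75.7% of the 4879 genes had a peak that did. For RING1B, 0 of the 7 members with a single TSS and a single promoter peak were above 90%, beside 11.6% of 10680 genes. Their median was 67.6% downstream, beside 57.5% over those genes, and Notch4, at 12.2%, was one-sided the other way.

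Gene bodies of the Delta-like genes lay largely under Polycomb peaks. RING1B peaks covered 47.8% of the Dll1 body, 92.8% of the Dll3 body and 88.5% of the Dll4 body. SUZ12 peaks covered 55.5%, 100% and 100% of the same bodies, and PCGF2 peaks covered 41.5%, 14.3% and 27.5%. At the other members RING1B covered less: 10.5% of Notch1, 1.05% of Notch2, 5.25% of Notch3, 15.5% of Notch4, 12% of Jag1 and 16.1% of Jag2. The bodies differ in length, however, since the Delta-like genes span 8.23 to 9.88 kb and the other 6 members span 20.9 to 137 kb. Genes under 10000 bp with all 3 factors had a median of 100% of the body under RING1B. Dll1 and Dll4 lay below it but near the upper end of that length class, and genes of closely matched length were not compared. For genes of 10000 to 20000 bp with all 3 factors the median was 22.8%. In the class of 20000 to 50000 bp this median was 9.21%, which Notch1 and Jag1, the members of that class with all 3 factors, exceeded slightly.

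**Figure D3:**
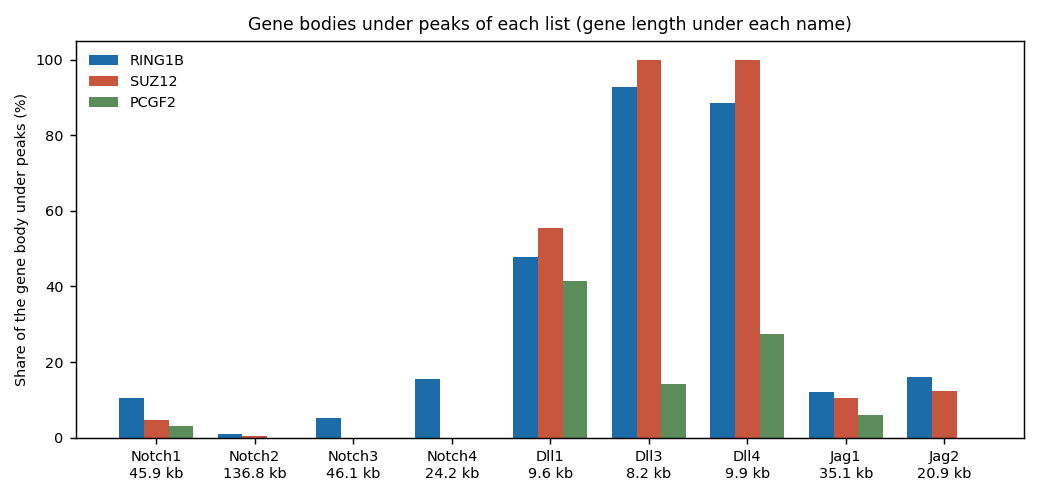
Share of each gene body, in percent, under peaks of RING1B (blue), SUZ12 (red) and PCGF2 (green), with the gene length below each name. Bars for Dll3 and Dll4 reach 100% for SUZ12, and the receptor genes stay at or below 15.5% for RING1B.

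RING1B peaks that overlapped the gene body and lay outside every promoter window were found at 5 of the 9 genes, where the background was 9.40% of all genes. These were Notch1, Notch3, Notch4, Dll4 and Jag1. Notch1 had peaks of 664 and 1281 bp whose midpoints lay in exons near the 3′ end, 42.6 kb and more from the start. Notch3 had a peak of 962 bp in an intron about 4.03 kb after the TSS. Notch4 had a peak of 475 bp and, at the 3′ end, one of 3290 bp (34585466 to 34588755), wider than the peak at its own promoter. Neither SUZ12 nor PCGF2 overlapped these peaks in Notch1, Notch3 or Notch4, nor the 1145 bp peak in a Jag1 intron. The 4216 bp peak at the Dll4 3′ end was the exception, with 93.6% of it under SUZ12, and its midpoint lay past the end of the gene at 119335666. Long genes hold such peaks more often, with 11.3% of genes of 20000 to 50000 bp against 3.08% of shorter genes under 10000 bp.

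By CpG content, the receptors with SUZ12 lay above those without it, whereas the ligands all had SUZ12 at both high and low CpG content. A promoter was called CpG-rich when TSS plus and minus 500 bp had an observed over expected CpG ratio of at least 0.6 and at least 50% G and C. This held for 6 of the 9 members and for 43.9% of all genes, and all 6 had RING1B and SUZ12. Of all 11505 CpG-rich genes 88.8% had RING1B, a share near that of the members, 40.4% had SUZ12 and 23.0% had all 3 factors, beside 4 of the 6 CpG-rich members with all 3. Notch1 and Notch2 had ratios of 0.728 and 0.946, and Notch3 and Notch4 had 0.583 and 0.149. The Notch4 value is below the median of 0.225 for genes with no RING1B peak at a promoter. Dll3 fell short of the threshold at 0.559 but lay under the 13492 bp SUZ12 peak. Jag2 had the highest ratio, 1.07, with 160 CpGs in the window, and no PCGF2 peak, whereas Dll4 at 0.601 had all 3 factors.

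**Figure D4:**
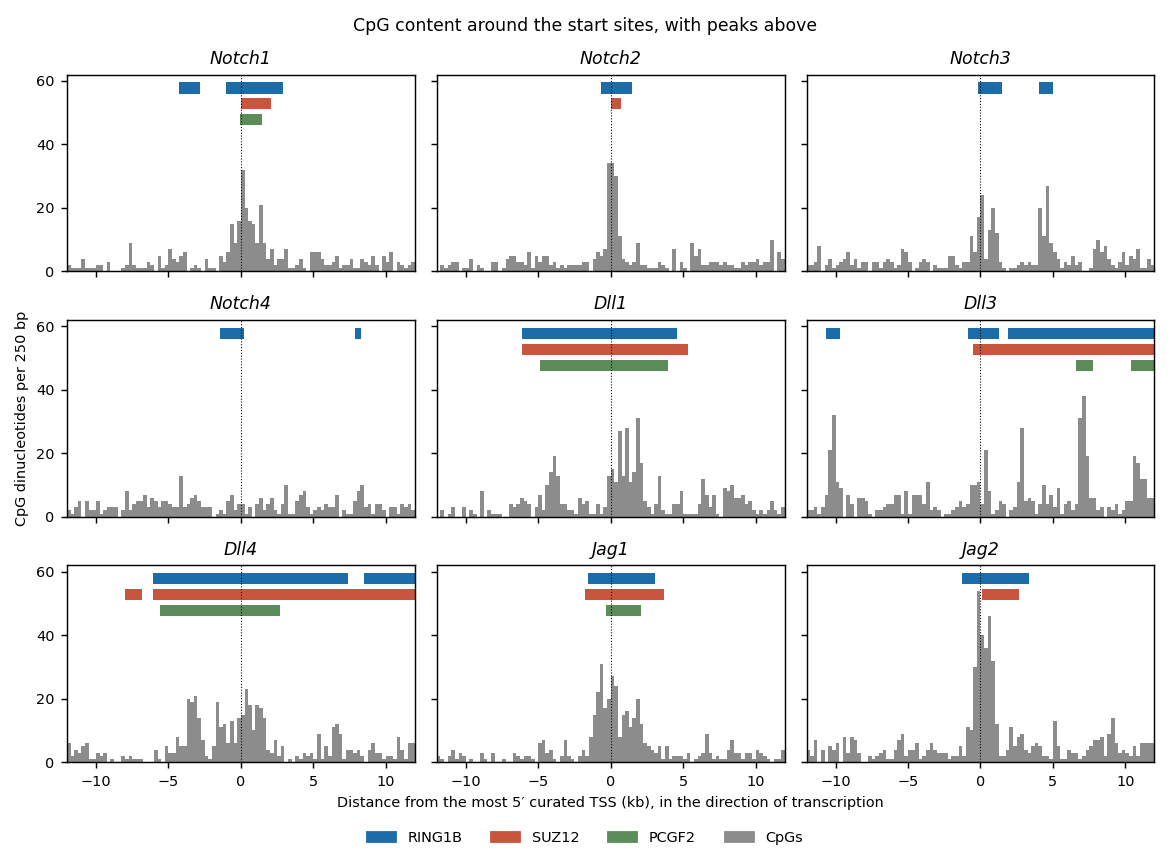
CpG dinucleotides per 250 bp from 12 kb before to 12 kb after the most 5′ curated TSS of each gene (grey bars), in the direction of transcription, with the peaks of the 3 lists above. Most of the CpG-dense stretches at Dll1, Dll4 and Jag1 lie under all 3 factors, the tall cluster at Jag2 lies only partly under SUZ12, and Notch4 has no dense cluster at its start.

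Windows of 250 bp with at least 8 CpGs, a limit chosen after the profiles had been seen, were counted within 12 kb of each start, as under a factor when its peaks covered at least 50% of the window. Dll4 had 22 such windows, all of them under RING1B and SUZ12 and 77.3% under PCGF2. Dll3 also had 22, of which 86.4% were under RING1B, 68.2% under SUZ12 and 31.8% under PCGF2. Of the 19 under RING1B, 3 lay in the separate upstream peak at the start of Timm50, and of the 7 under PCGF2, 4 lay in the peak at Selenov. Peaks at these genes were not limited to CpG-dense DNA, since of the other windows RING1B covered 60.8% at Dll4, 44.6% at Dll3 and 36.0% at Dll1. At the remaining 6 members that share lay between 2.41% at Notch3 and 14.1% at Notch1. Jag2 had 19 dense windows, of which RING1B covered 63.2%, SUZ12 36.8% and PCGF2 none. In the 2 kb on either side of the most 5′ start, 8 of the 9 genes had more CpGs after it than before it. The same count was not made over all genes, so it is not known to be particular to the members. The share after the start ran from 48.9% at Dll3, the exception, to 82.4% at Dll1, with 150 CpGs after and 32 before. At Dll1 the other curated start lies within the 2 kb after. Notch4 and Jag1 were near even, at 52.2% and 53.1%.

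The other 53 genes of the pathway, taken from a list set up by role, carried RING1B at 49 promoters, SUZ12 at 31 and PCGF2 at 22, and all 22 genes with PCGF2 had all 3 factors. In percent these were 92.5, 58.5 and 41.5, to be read beside the shares over all genes given above and beside the 77.4% of the 53 that were CpG-rich. All 9 Hes and Hey genes, which encode basic helix-loop-helix repressors, had RING1B and SUZ12, and 8 had PCGF2, with Hes3 the exception. When a peak had to contain a TSS, Hes1 and Heyl no longer had all 3 factors. The widest RING1B peaks of the family were 12938 bp at Hes3, 9522 bp at Hes1, 6410 bp at Hes2, 8129 bp at Hes5, 5790 bp at Hes6, 12271 bp at Hes7, 5546 bp at Hey1, 6295 bp at Hey2 and 8557 bp at Heyl. This range of widths overlaps that of the ligands and lies above that of the receptors. The Hes5 peak also holds the start of Pank4 and the Hes7 peak that of Aloxe3, so these widths cannot be given to Hes5 and Hes7 alone. Nrarp, a feedback inhibitor of the Notch transcription complex, had all 3 factors under a RING1B peak of 7626 bp.

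Genes that process and modify the receptor mostly had RING1B peaks, and fewer of them had SUZ12 or PCGF2. The same order of RING1B, SUZ12 and PCGF2 held over all genes, at 53.2%, 24.8% and 13.5%. Over CpG-rich genes the shares were 88.8%, 40.4% and 23.0%. Of 7 gamma-secretase subunit genes, 6 had RING1B, Ncstn had none, 2 had SUZ12 (Aph1b and Aph1c, which are close paralogues) and 0 had PCGF2. The 3 enzyme genes that add O-linked sugars other than the fringe genes had RING1B alone, with peaks of 822 to 1562 bp. Of the fringe glycosyltransferases, which change the ligand preference of the receptors, Lfng had all 3 factors and a RING1B peak of 9044 bp. Of the receptor proteases, Adam10 (3019 bp) and Furin (3088 bp) had all 3 and Adam17 had no RING1B peak. The start of Gm44851 lies in the Furin peak. Among ubiquitin ligases that act on the ligands, Neurl1b had all 3 factors, with 4131 bp of RING1B.

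In the nuclear complex, Rbpjl, Maml2 and Maml3 had all 3 factors, with RING1B peaks of 9754, 3818 and 8209 bp, while Rbpj itself and Maml1 had RING1B alone and Snw1 had none. The start of Matn4 lies in the Rbpjl peak. Of 5 corepressor genes, Spen had all 3 factors (3898 bp). Of 8 genes for receptor turnover and trafficking, Dtx1 (4903 bp) and Dtx4 (2189 bp) had all 3, and Dtx2 had no RING1B peak. For corepressor and turnover genes the counts with all 3 factors lay near the 23.0% of CpG-rich genes, beside 13.4% of all genes. Among 4 related genes with EGF repeats, Dlk1 (13533 bp), Dlk2 (4504 bp) and Dner (1693 bp) had all 3. The start of Mir5126 lies in the Dner peak. The median of the widest RING1B peak was 8129 bp for the Hes and Hey genes and 1358 bp for gamma-secretase, beside the 10698 and 1888 bp of the ligands and receptors. The ligand value counts Dll3 by its 11063 bp peak, which does not hold the TSS. The 8129 bp are those of the Hes5 peak, which also holds the Pank4 start.

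**Figure D5:**
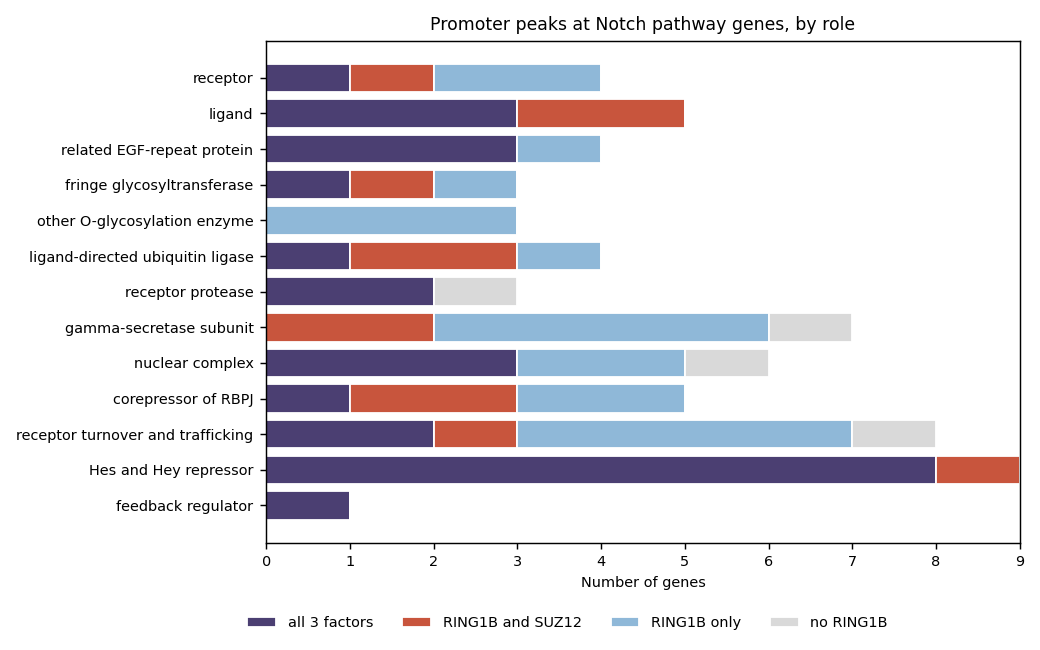
Number of genes in each role of the Notch pathway by the factors with a promoter peak: all 3 factors, RING1B and SUZ12, RING1B alone, or no RING1B. The 5 ligands all have SUZ12, 2 of the 4 receptors do not, and the 9 Hes and Hey genes include 8 with all 3 factors.

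The lists were made by different rules, which bears on the differences between factors at one gene. RING1B and SUZ12 peaks had to be found in both lines from merged replicates, whereas PCGF2 peaks had to be found in every PRC1CPM replicate. The part these rules play in the narrower or missing PCGF2 and SUZ12 peaks was not tested, and a gene without a listed peak cannot be called free of the factor.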

How the data were processed

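Calibrated ChIP-seq peak lists for RING1B, SUZ12 and PCGF2 were used as the authors deposited them, as start and end positions on mm10 with no other value. The authors aligned reads with Bowtie 2 to mouse joined with a spike-in genome, kept unique reads, removed duplicates with Sambamba and called peaks with MACS2 in broad paired-end mode against input. RING1B and SUZ12 peaks came from merged replicates and had to occur in PRC1CPM and PRC1CKO cells. PCGF2 peaks had to occur in all PRC1CPM replicates. Blacklisted regions were removed, and RING1B peaks without significant loss after tamoxifen in PRC1CKO cells were dropped. The RING1B data from PRC1CKO cells came from an earlier published study and are not among the 118 samples. They shaped the RING1B list but were not analysed here. Broad calling joins nearby enrichment, so widths depend on depth and settings, and depth is unknown from the lists.

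Genes and TSSs came from the curated RefSeq annotation of GRCm38.p6, and promoter sequences from RefSeq. Overlaps, gene body shares and CpG content were computed in Python 3.11.15 with NumPy 2.4.6 and pysam 0.24.0. The overlap search was tested on simulated data and found 1000 of 1000 planted overlaps. The members and the pathway list were chosen with earlier results of these data known, so counts stand beside the share over all genes and no test was made. All members were named. Other pathway genes were named when all 3 factors or no RING1B peak lay at a promoter, and further genes when their start lay in a promoter peak of a member. Hes3, Rbpj, Maml1, Aph1b, Aph1c, Timm50, Matn4, Pank4, Aloxe3, Gm44851 and Mir5126 fall outside this rule and were named after their values were seen. The alternatives were other promoter windows, TSS sets, overlaps, peak widths, peak merging and CpG windows.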

Additional observations from a re-analysis of the deposited data

How the results depend on the processing

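Of 73 alternative values over 15 results, 49 equalled the reported value, and 67 in all equalled it or, for counts, were within 1.5 times of it. The other 6 moved. RING1B lay at 9 of the 9 members under every promoter window, TSS set, overlap and width tried. When a peak had to contain a TSS, SUZ12 fell from 7 to 5 members (Notch1 and Jag2 lost) and all 3 factors from 4 to 3 (Notch1 lost). With peaks of at least 1000 bp only, SUZ12 fell to 6 members (Notch2 lost). At the other pathway genes, requiring a TSS in the peak took SUZ12 from 31 to 24, and PCGF2 and all 3 factors from 22 to 17. Dner, Dtx4, Hes1, Heyl and Spen then no longer had all 3. The median RING1B width of 4603 bp became 3921 bp with peaks that contain a TSS, where the 2151 bp peak stands for Dll3, and 4657 bp as the sum within 10 kb. The median SUZ12 width of 5513 bp became 11440 bp with peaks that contain a TSS, since Notch1 and Jag2 then drop out. The median RING1B share of the gene body, 15.5%, became 5.36% without the promoter windows. The share of CpG-rich genes with all 3 factors, 23.0%, became 21.5% with TSS plus and minus 250 bp and 28.1% with 1000 bp. Notch3 counted as CpG-rich in the narrower window and Dll4 did not in the wider one. The count of members with a RING1B peak over the body and outside the promoters fell from 5 to 4 when predicted starts were added, with Notch3 lost. Taking peak midpoints over 5000 bp from every start also gave 4, with Dll4 and Notch3 lost and Dll3 gained. No paired analysis was possible because peaks are given for all replicates together. Depth and peak strength are unknown from the lists, so weak binding cannot be told from none.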
